A study of Mus musculus with 16 samples.

Results

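The peaks of p53 and of EZH2 in resting macrophages were compared with each other: where they lay relative to genes, how wide they were, where they crowded together, and which genes they reached. The members are every listed peak of both immunoprecipitations on chromosomes 1 to 19 and X, chosen by library label and chromosome alone, 4878 for p53 and 9581 for EZH2, which makes 14459 of the 367397 peaks in the 9 peak lists of the series. The cells were wild-type C57BL/6 primary macrophages, grown from bone marrow of adult mice for 5 days with M-CSF and left untreated. Chromatin was immunoprecipitated with a p53 or an EZH2 antibody, both from Cell Signaling, and the untreated input library named like them by label is the same for both. The series has 16 samples, of which 9 are immunoprecipitated libraries with a peak list and 7 are inputs, and H3K27me3 and H3K27ac lists from untreated wild-type macrophages of the same kind were used to describe the peaks. Each antibody was used on 1 library (n = 1), so no difference below has a replicate check and no test was made. Intervals on shares are Wilson 95% intervals, intervals on fragments are exact Poisson 95% intervals, and both cover counting error only.

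p53 is a transcription factor that binds DNA as a tetramer at response elements built of paired half-sites and is known for switching on genes of cell-cycle arrest, DNA repair and cell death. EZH2 is the catalytic subunit of Polycomb repressive complex 2, which methylates lysine 27 of histone H3. The trimethylated form, H3K27me3, marks silent developmental genes, and the complex is known to gather at promoters rich in CpG dinucleotides. H3K27ac, acetylation of the same lysine, marks active promoters and enhancers and cannot sit on the same histone tail position.

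The promoters overlapped by peaks of the p53 and EZH2 lists differed in CG content, and the promoters below are examples. They are the 3 genes of each list with a formal symbol and the highest peak fold over a listed promoter, and Fasl, which led the genes by p53 fold. The p53 peaks over the 3 p53 examples had 9 or 10 fragments and a listed −log10 q of at most 0.46. Those peaks were not separated from background by the authors' caller, so p53 occupancy of these 3 promoters is not shown. The peaks over the 3 EZH2 examples had 29 to 34 fragments and a −log10 q of at least 15.2. Each is a RefSeq promoter of GRCm38.p6, 250 bases before and 50 from the transcription start, printed 5′ to 3′ on the gene's strand, with CG dinucleotides in capitals. The p53 list overlapped the promoters of the vomeronasal receptor genes Vmn1r155 (chr7:22657768-22658067, plus strand, 3 CG) and Vmn1r251 (chr7:22201215-22201514, minus strand, 2 CG), and of the bitter taste receptor gene Tas2r108 (chr6:40493342-40493641, plus strand, 3 CG).
Vmn1r155: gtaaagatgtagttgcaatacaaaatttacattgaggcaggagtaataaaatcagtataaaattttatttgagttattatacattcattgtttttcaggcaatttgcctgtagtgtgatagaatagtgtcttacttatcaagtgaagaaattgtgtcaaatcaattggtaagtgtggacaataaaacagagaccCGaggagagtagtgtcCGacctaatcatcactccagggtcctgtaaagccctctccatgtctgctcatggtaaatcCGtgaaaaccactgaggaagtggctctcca
Vmn1r251: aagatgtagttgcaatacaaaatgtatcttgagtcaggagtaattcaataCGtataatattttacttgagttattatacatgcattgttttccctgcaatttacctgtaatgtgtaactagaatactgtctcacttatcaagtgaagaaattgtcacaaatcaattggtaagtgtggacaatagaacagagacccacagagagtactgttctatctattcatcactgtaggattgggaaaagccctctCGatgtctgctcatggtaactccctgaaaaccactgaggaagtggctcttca
Tas2r108: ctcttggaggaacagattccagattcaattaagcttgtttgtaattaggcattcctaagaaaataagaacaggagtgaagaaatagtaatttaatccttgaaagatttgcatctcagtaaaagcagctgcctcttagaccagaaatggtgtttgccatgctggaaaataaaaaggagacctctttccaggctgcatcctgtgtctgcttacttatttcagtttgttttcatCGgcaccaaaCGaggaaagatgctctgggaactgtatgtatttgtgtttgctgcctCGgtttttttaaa
The EZH2 list overlapped the promoters of the forkhead factor gene Foxi3 (chr6:70956356-70956655, plus strand, 31 CG), of Erfl (chr7:24944722-24945021, minus strand, 31 CG) and of the endoderm forkhead factor gene Foxa2 (chr2:148045415-148045714, minus strand, 13 CG).
Foxi3: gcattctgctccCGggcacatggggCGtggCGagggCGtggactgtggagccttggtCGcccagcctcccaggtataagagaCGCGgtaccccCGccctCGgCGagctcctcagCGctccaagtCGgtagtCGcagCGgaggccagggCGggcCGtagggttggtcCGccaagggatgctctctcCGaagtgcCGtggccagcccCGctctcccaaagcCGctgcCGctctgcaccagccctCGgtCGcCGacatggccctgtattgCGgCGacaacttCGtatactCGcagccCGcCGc
Erfl: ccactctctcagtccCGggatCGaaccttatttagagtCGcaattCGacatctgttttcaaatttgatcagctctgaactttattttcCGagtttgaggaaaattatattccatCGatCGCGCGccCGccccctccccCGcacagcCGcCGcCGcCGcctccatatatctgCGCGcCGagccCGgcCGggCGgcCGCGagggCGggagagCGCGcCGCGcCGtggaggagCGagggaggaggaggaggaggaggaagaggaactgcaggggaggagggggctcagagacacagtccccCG
Foxa2: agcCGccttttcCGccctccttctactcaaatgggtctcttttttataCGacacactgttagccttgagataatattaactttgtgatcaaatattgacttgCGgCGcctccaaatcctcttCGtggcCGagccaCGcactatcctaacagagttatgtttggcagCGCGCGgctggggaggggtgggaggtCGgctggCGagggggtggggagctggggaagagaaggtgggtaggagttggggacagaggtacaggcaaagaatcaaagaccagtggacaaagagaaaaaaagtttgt
The Fasl promoter (chr1:161788446-161788745, minus strand, 7 CG) lay 159 bp from the nearest p53 peak, which was on its transcribed side.
Fasl: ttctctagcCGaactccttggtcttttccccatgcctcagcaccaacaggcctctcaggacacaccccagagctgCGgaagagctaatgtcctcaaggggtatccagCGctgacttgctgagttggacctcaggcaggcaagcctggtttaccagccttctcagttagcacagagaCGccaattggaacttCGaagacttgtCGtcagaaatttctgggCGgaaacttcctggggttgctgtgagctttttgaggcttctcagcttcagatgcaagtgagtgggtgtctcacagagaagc
The promoters of Vmn1r155 and Vmn1r251 share a run of 27 identical bases, against at most 11 for any other pair shown here.

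Across the 32619 promoters of the table, 28 overlapped a p53 peak and 987 overlapped an EZH2 peak, and none overlapped both. With 28 p53 promoters and 987 EZH2 promoters among 32619, a lack of shared promoters is near the background. It cannot show whether the lists avoid each other's promoters. Those under a p53 peak held a median of 3 CG (quartiles 1 and 4.25) and those under an EZH2 peak a median of 21 (quartiles 12 and 30.5), beside a median of 7 over all promoters. At least 10 CG were found in 10.7% of the p53 promoters and in 80.7% of the EZH2 promoters, against 43.8% of all promoters. Only 1.19% of all p53 peaks had q of at most 0.05, so the p53 values describe overlapped windows and not shown p53 targets. Windows of neighbouring starts can overlap and were counted apart, as at Gm26680 and Gm3629. The p53 promoters with many CG were exceptions among the 28, namely Kank4 with 38, Adra1b with 28 and Nmt1 with 19. The 58 promoters under an EZH2 peak but without H3K27me3 had a median of 9 CG, and the 929 with both had a median of 21. The p53 half-site consensus, which reads the same on both strands, matched 2 of the 28 p53 promoters (7.14%), 5.27% of the EZH2 promoters and 8.36% of all promoters of the same length. The 2 were Gbp3, a guanylate-binding protein gene, and Tas2r108. A match describes letters and is no binding site, and the windows hold little of each peak's surroundings.

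The p53 list had fewer fragments per summit and fewer peaks past a q-value threshold than the EZH2 list, while its folds were slightly higher, with a median of 2.72 (highest 10.9) for p53 and 2.61 (highest 9.37) for EZH2. The deposited fold of a peak sets the fragments at its summit plus 1 against the local background plus 1, and the fragments could be solved back to whole numbers for 4876 of the p53 peaks and for all 9581 EZH2 peaks, to within 0.0001 of the listed −log10 p. p53 summits rested on a median of 7 fragments (lowest 6) and EZH2 summits on a median of 10 (lowest 7). The most common local background was 1.945 fragments in the p53 list and 2.74 fragments in the EZH2 list, so the EZH2 values came from the deeper sampling. Folds of the 2 lists therefore do not compare occupancy. The lowest −log10 p listed was 2.01 in both lists, and a q-value of at most 0.05 was reached by 58 p53 peaks (1.19%) and 1731 EZH2 peaks (18.1%). A q-value of 1 was listed for 4518 p53 peaks (92.6%) and 3981 EZH2 peaks (41.6%). The whole-list shares of p53 below therefore describe mostly peaks that the authors' caller did not separate from background at this depth.

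Over the whole list, p53 summits were at gene ends about as often as evenly spaced positions, less often inside genes and more often far from genes. EZH2 summits were gathered at gene ends. Within 1 kb of either end of a RefSeq gene lay 309 of 4878 p53 summits (6.33%, 5.68 to 7.05%) and 2101 of 9581 EZH2 summits (21.9%, 21.1 to 22.8%), against 6.27% of positions taken every 500 bp along the same chromosomes. The shares inside gene bodies were 39.7% for p53 and 39.7% for EZH2, against 44.4% of positions. More than 10 kb from any gene lay 39.0% of p53 summits (37.6 to 40.4%) and 22.9% of EZH2 summits (22.1 to 23.8%), against 35.2% of positions. The remainder, 14.97% of p53 and 15.5% of EZH2 summits, were intergenic but within 10 kb. Counting listed transcription starts instead of gene ends, 76 p53 summits (1.56%) and 1347 EZH2 summits (14.1%) lay within 1 kb. The 58 p53 peaks with q of at most 0.05 lay otherwise than the whole list. They were within 1 kb of a gene end in 9 cases (15.5%, 8.38 to 26.9%) and inside genes in 27 (46.6%, 34.3 to 59.2%). Beyond 10 kb lay 11 of them (18.97%, 10.9 to 30.9%), against 35.2% of positions.

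The gathering at gene ends belonged to the EZH2 peaks that overlapped H3K27me3. Beside the p53 shares of 6.33% at a gene end and 39.0% beyond 10 kb, the EZH2 peaks split in 2. Of the 4053 EZH2 peaks in H3K27me3, 42.5% (41.0 to 44.1%) were at a gene end and 4.27% were beyond 10 kb. Of the 5528 EZH2 peaks outside H3K27me3, 6.82% (6.18 to 7.51%) were at a gene end and 36.6% were beyond 10 kb. Near a listed transcription start stood 1.56% of the p53 peaks, 30.1% of the EZH2 peaks in H3K27me3 and 2.32% of those outside it. The bars of location shares show the p53 list and the EZH2 peaks outside H3K27me3 at like heights in each class. Both are mostly peaks short of a q of at most 0.05, which 1.19% of p53 peaks and 4.21% of EZH2 peaks outside H3K27me3 reached, against 37.0% in it. Of the EZH2 peaks outside the mark that reached it, 9.87% (6.67 to 14.4%) were at a gene end and 25.3% beyond 10 kb. The p53 peaks that reached it had 15.5% and 18.97%.

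**Figure D1:**
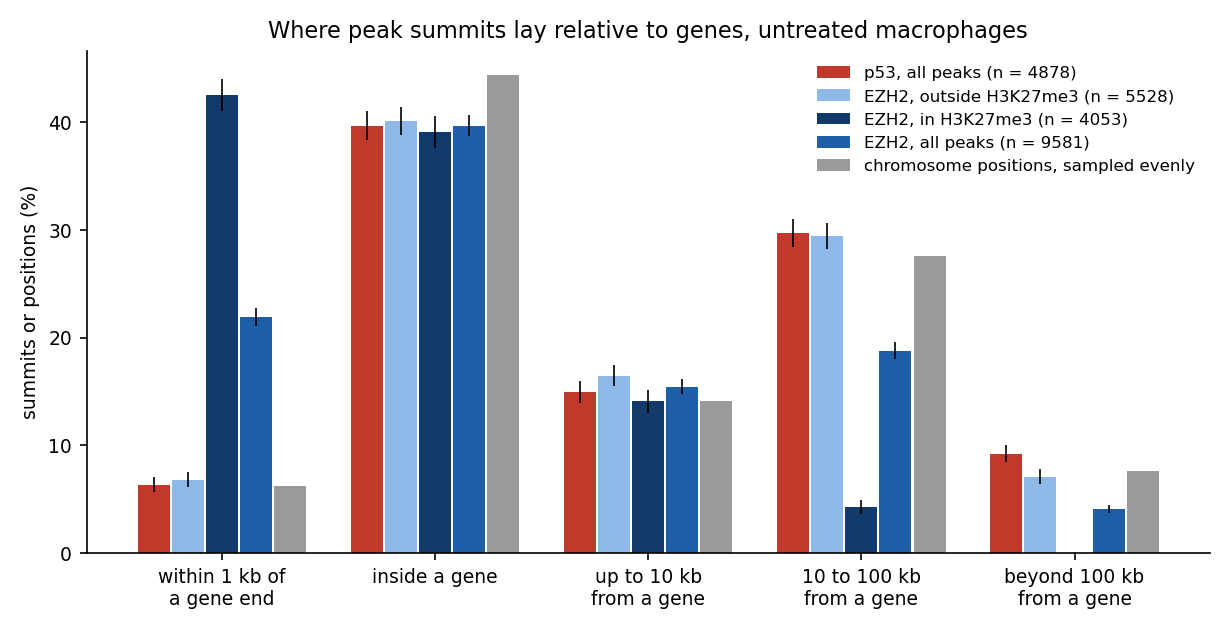
Share of peak summits (%) in 5 location classes, for p53, for EZH2 outside and in H3K27me3, for all EZH2 peaks and for evenly sampled chromosome positions; error bars are Wilson 95% intervals. Within 1 kb of a gene end stood 6.33% of p53 peaks and 42.5% of EZH2 peaks in H3K27me3, against 6.27% of positions.

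p53 peaks were short and EZH2 peaks included broad domains. The median width was 379 bp for p53 (quartiles 337 and 454) and 435 bp for EZH2 (quartiles 359 and 638), and the shortest peaks had 309 bp for p53 and 314 bp for EZH2. At least 1 kb was reached by 56 p53 peaks (1.15%) and 1278 EZH2 peaks (13.3%). At least 2 kb was reached by 2 p53 and 477 EZH2 peaks, and at least 5 kb by 0 p53 and 50 EZH2 peaks. The broadest p53 peak had 4516 bp and covered the pseudogenes Gm10222 and Gm10925, the second of which carries the mitochondrial ATP synthase gene Atp6 among its RefSeq synonyms. The broadest EZH2 peaks covered Tbx2, a limb and heart T-box gene (12927 bp), Dmrta2, a neural DM-domain gene (11171 bp), Lbx1, a muscle and neural homeobox gene (10336 bp), and Hoxd10 (9095 bp).

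H3K27me3 was no more frequent under wide p53 peaks, whereas in the EZH2 list its share rose with width at each step. Below 400 bp, from 400 to 600 bp and from 600 to 1000 bp, the p53 shares in H3K27me3 were 2.32%, 2.76% and 1.76%, and none of the 56 p53 peaks of at least 1 kb overlapped it. The share of EZH2 peaks in H3K27me3 was 20.8% below 400 bp, 35.5% from 400 to 600 bp, 69.1% from 600 to 1000 bp, 93.4% from 1 to 2 kb and 99.5% from 2 to 5 kb, and all 50 wider peaks overlapped the mark. Beside the p53 median of 379 bp, EZH2 peaks in H3K27me3 had a median of 638 bp and those outside a median of 386 bp. At gene ends the median width was 391 bp for p53 and 649 bp for EZH2, and beyond 100 kb from a gene it was 372 bp for p53 and 383 bp for EZH2. In the plot of widths the p53 curve runs along that of the EZH2 peaks outside H3K27me3, and both are mostly peaks short of a q of at most 0.05. Among peaks that reached it, the medians were 537.5 bp for p53 and 466 bp for EZH2 outside H3K27me3.

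**Figure D2:**
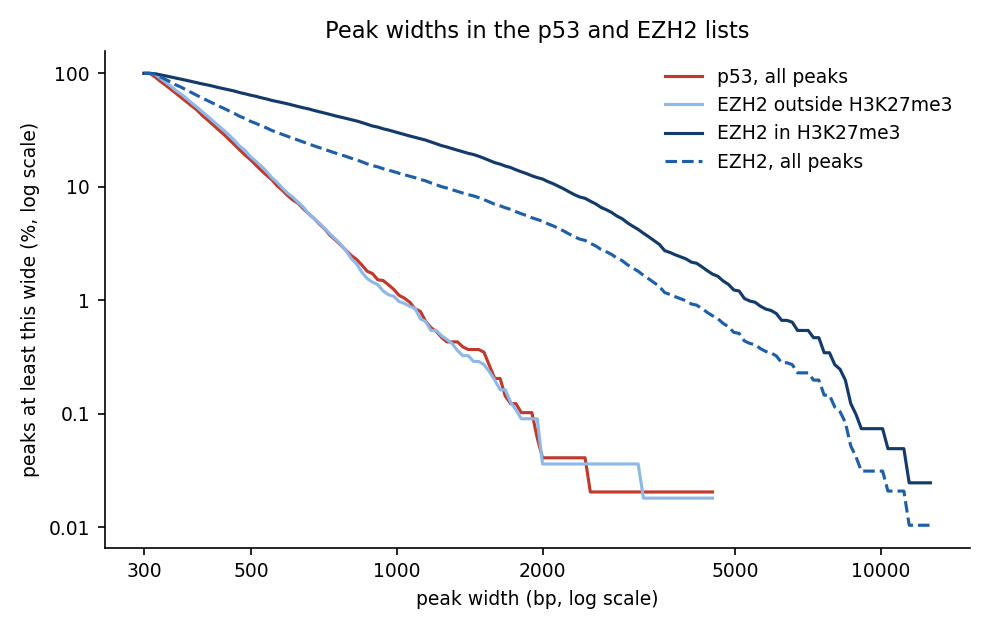
Share of peaks (%, log scale) at least as wide as the value on the x axis (bp, log scale), for p53, for EZH2 outside and in H3K27me3, and for all EZH2 peaks. At 1 kb the curves stand at 1.15% for p53, 0.995% for EZH2 outside H3K27me3 and 30.2% for EZH2 in H3K27me3.

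Few peaks of either list overlapped the active mark. H3K27ac peaks were overlapped by 103 p53 peaks (2.11%, 1.74 to 2.55%) and 212 EZH2 peaks (2.21%, 1.94 to 2.53%), and H3K27ac peaks covered 2.84% of the chromosomes. H3K27me3 was overlapped by 117 p53 peaks (2.40%, 2.01 to 2.87%) and 4053 EZH2 peaks (42.3%, 41.3 to 43.3%), and covered 4.84%. The EZH2 list from cells given nigericin after LPS offered a second EZH2 library: it overlapped 2.32% of p53 peaks and 16.6% of EZH2 peaks. By mark, it overlapped 36.0% of the EZH2 peaks in H3K27me3 and 2.33% of those outside. The H3K27ac library showed macrophage chromatin, with a peak at a gene end of all 10 macrophage identity genes (folds of 3.18 to 10.8), against 17.8% of all genes. None of the 10 had H3K27me3, against 20.9%. By label, both mark libraries have another input than the p53 and EZH2 libraries, whose own cells were not typed. H3K27ac was at 0 of 6 neutrophil, 0 of 5 stromal, 0 of 5 erythroid and 1 of 6 lymphocyte markers, the 1 being Cd79a at a fold of 3.66. At 17.8% of all genes, 0 or 1 in lists this small is near the background.

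The strongest p53 peaks were at few places. Fasl, which encodes the death ligand of the receptor Fas, held 2 narrow p53 peaks and no EZH2 peak. The first (chr1:161787950-161788287) had 44 fragments (32.0 to 59.1) and a fold of 10.001, and the second (chr1:161781584-161781965), towards the other end of the gene, had 31 fragments (21.1 to 44.0) and a fold of 10.9. The nearest EZH2 peak was 204035 bp away. At Nlrp3, the inflammasome sensor gene, 1 intragenic p53 peak (chr11:59548014-59549674) had 41 fragments (29.4 to 55.6) and a fold of 9.33, and EZH2 had 40 fragments (28.6 to 54.5) and a fold of 6.26 over nearly the same bases. That p53 peak also overlapped the nigericin EZH2 list and the SIRT1 list of Ezh2-knockout macrophages, but not the other SIRT1 lists. Neat1, a nuclear long non-coding RNA of paraspeckles, had 5 p53 peaks, with folds of 2.0 to 3.67 at the 4 within the gene and 7.14 (24 fragments, 15.4 to 35.7) at its end, where the single EZH2 peak had a fold of 8.31 and 37 fragments. Both peaks at Nlrp3 and both at the end of Neat1 overlapped H3K27ac, and none of them overlapped H3K27me3. The peak over Gm10222 and Gm10925 had 114 fragments and a fold of 8.32 for p53, and 98 fragments and a fold of 5.25 for EZH2. A p53 peak 4798 bp from H60c, a ligand gene of the natural killer receptor NKG2D, had a fold of 6.89, and 1 inside Tnfrsf23, a mouse decoy receptor gene for the death ligand TRAIL, had a fold of 5.33.

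Many p53 peaks with q of at most 0.05 lay in crowded megabases. Of the 58, 31 (53.4%) were in megabases crowded with p53 peaks, 25 (43.1%) overlapped EZH2, 3 overlapped H3K27ac and 0 overlapped H3K27me3 (upper bound 6.21%). Sfi1, a centrosomal gene on chromosome 11, overlapped 9 of them (chr11:3161018-3199913), with folds of 1.93 to 3.74, and those whose fragments could be solved had 49 to 102. The p53 peak with the highest −log10 q, chr2:98666579-98667279, had a fold of 1.39 and lay 35417 bp from the nearest gene. It overlapped an EZH2 peak and a peak in every SIRT1 list of the series, that of p53-knockout macrophages included, so it was not particular to p53. With it, 5 of the 58 (8.62%) overlapped the p53-knockout SIRT1 list, against 1.44% of all p53 peaks. The peaks at Gm10925 and Myo3a were among the 5. Of EZH2 peaks with q of at most 0.05, 1498 were in H3K27me3 and 233 were not. Of those 233, 57 (24.5%) overlapped p53 and 86 (36.9%) were in crowded megabases, and the gene bodies they reached included Ahnak (fold 4.81) and Resf1 (fold 4.28). Reads from near-identical copies can be shared or misplaced among them by an aligner, and the part of that in these peaks was not tested.

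Crowding was measured in 2581 bins of 1 Mb, and a bin was called dense in a list when it held at least 5 times that list's mean. The mean was 1.89 p53 peaks and 3.71 EZH2 peaks per bin, which made bins dense from 10 and from 19 peaks. Dense bins numbered 28 for p53, with 684 peaks (14.02% of the list), and 25 for EZH2, with 787 peaks (8.21%). They fell into 3 kinds. In 12 bins dense in both lists there were 449 p53 and 407 EZH2 peaks, and 1.97% of these EZH2 peaks overlapped H3K27me3. In 16 bins dense in p53 alone there were 235 p53 and 185 EZH2 peaks, with 2.7% of the EZH2 peaks in H3K27me3. In 13 bins dense in EZH2 alone there were 13 p53 and 380 EZH2 peaks, and 95.3% of these EZH2 peaks overlapped H3K27me3. By definition these bins hold fewer than 10 p53 peaks. Their median was 1 p53 peak, as it was over all bins, so their p53 count is at the background.

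The bins dense in both lists held tandem gene families and many pseudogenes, and pseudogenes made up 48.0% of their 371 genes against 21.2% of all genes. In the bins dense in p53 alone pseudogenes were 16.7% of 627 genes, and in those dense in EZH2 alone 6.81% of 631. The fullest were chromosome 4 from 147 Mb (64 p53 and 70 EZH2 peaks) and from 146 Mb (52 p53 and 45 EZH2 peaks), which hold zinc finger genes such as Zfp978 and Zfp981, and chromosome 8 from 20 Mb (52 p53 and 44 EZH2 peaks), where 14 of 25 genes are pseudogenes. Chromosome 7 from 15 Mb (41 p53 and 25 EZH2 peaks) holds 35 genes and pseudogenes of the Obox homeobox family, and chromosome 5 from 15 Mb (35 p53 and 22 EZH2 peaks) holds Speer genes. Chromosome 7 from 22 Mb (41 p53 and 25 EZH2 peaks) holds 25 vomeronasal receptor genes, and from 20 Mb (28 p53 and 22 EZH2 peaks) it holds 26. The bins dense in EZH2 alone held all 39 Hox genes of the 4 Hox clusters. They were fullest on chromosome 15 from 102 Mb (1 p53 and 50 EZH2 peaks), which holds 7 Hoxc genes, and on a chromosome 8 megabase (2 p53 and 46 EZH2 peaks), which holds 48 ribosomal RNA genes. The Hoxa, Hoxb and Hoxd megabases had 1, 0 and 0 p53 peaks, and 34, 34 and 33 EZH2 peaks. Such p53 counts are near the median of 1 per bin over all bins. Outside all dense bins, 4.74% of p53 summits were within 1 kb of a gene end and 42.3% were beyond 10 kb from any gene.

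**Figure D3:**
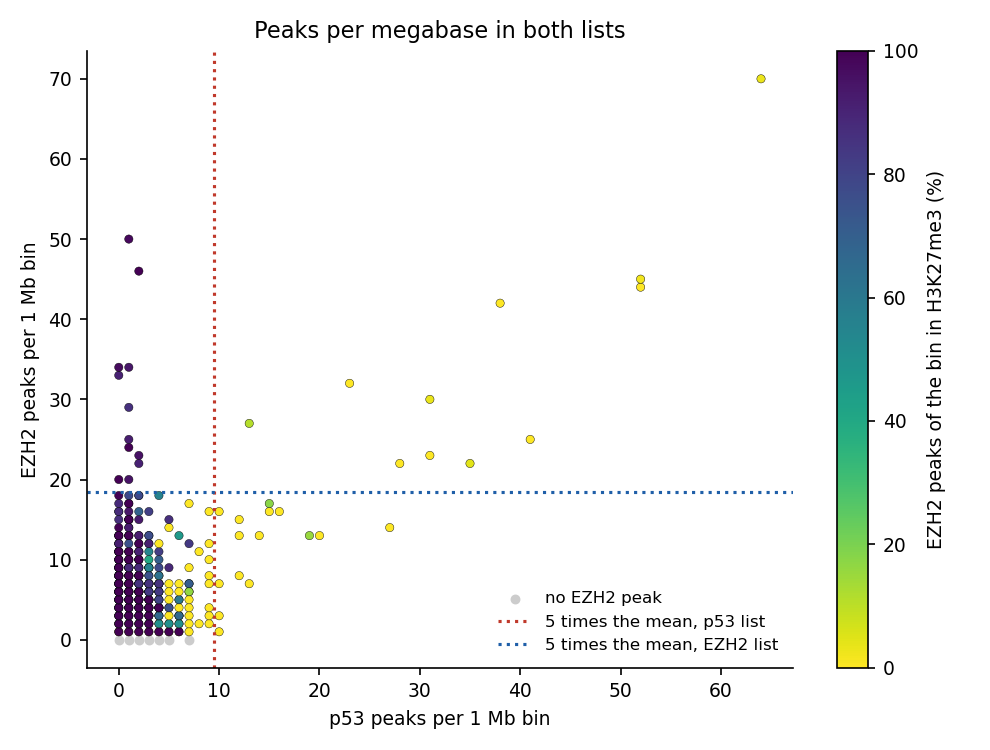
EZH2 peaks (y axis) against p53 peaks (x axis) per 1 Mb bin, coloured by the share of the bin's EZH2 peaks in H3K27me3 (%); dotted lines mark 5 times each list's mean. Bins dense in both lists run up to 64 p53 and 70 EZH2 peaks with little H3K27me3. Those dense in EZH2 alone hold at most 2 p53 peaks, beside a median of 1 over all bins.

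Overlapping peaks of p53 and EZH2 formed 233 pairs, made of 229 p53 peaks (4.69%, 4.14 to 5.32%) and 231 EZH2 peaks (2.41%, 2.12 to 2.74%). Dense megabases held 159 of the pairs and 74 lay elsewhere. The share of p53 peaks overlapping EZH2 was 22.5% in p53-dense megabases and 1.77% outside dense megabases. The summits of a pair were a median of 191 bp apart, 88 pairs (37.8%) had them within 100 bp, and in 182 (78.1%) the overlap took at least 50% of the shorter peak. H3K27me3 covered 8 pairs and H3K27ac covered 4. Of the EZH2 peaks in H3K27me3, 9 (0.222%) overlapped p53, against 222 (4.02%) of those outside the mark. In 14 pairs both peaks had q of at most 0.05, with median folds of 4.0 for p53 and 3.38 for EZH2, and 12 of these had the higher fold in the p53 list. The most common local background was 1.945 fragments in the p53 list and 2.74 in the EZH2 list, so this gives no order of occupancy. The 14 pairs are described by place alone. Outside dense megabases the 14 pairs included Nlrp3, Neat1, the Gm10925 region, the zinc transporter gene Slc30a4 (p53 4.01, EZH2 4.30) and Myo3a, an unconventional myosin gene (p53 3.38, EZH2 2.89). Over all peaks, overlapping pairs included, the median distance from a p53 summit to the nearest EZH2 summit was 93204 bp, and from an EZH2 summit to the nearest p53 summit it was 234105 bp.

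**Figure D4:**
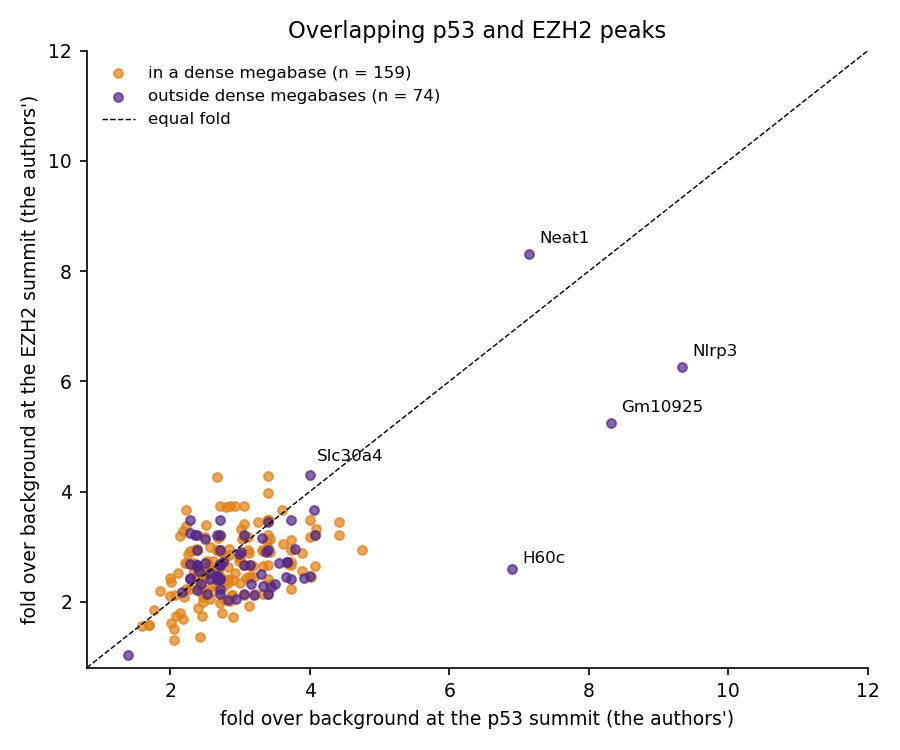
Fold over background at the EZH2 summit (y axis) against the p53 summit (x axis) for the 233 overlapping pairs, split by whether they lie in a dense megabase; the dashed line marks equal folds. Nlrp3, Gm10925 and H60c lie below the line and Neat1 lies above it, and the medians over all pairs are 2.74 for p53 and 2.67 for EZH2. Local background differs between the lists, so a place off the line shows no difference in occupancy.

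Genes with a peak within 1 kb of either end numbered 357 for p53 (0.72% of 49554 RefSeq genes) and 2468 for EZH2 (4.98%), and 56 genes had both (0.113%). The 56 were 15.7% of the p53 genes and 2.27% of the EZH2 genes, and 40 of them lay in dense megabases. H3K27me3 was at 20.9% of all genes, at 25 of the p53 genes (7.0%) and at 2080 of the EZH2 genes (84.3%). H3K27ac was at 17.8% of all genes, at 29 of the p53 genes (8.12%) and at 136 of the EZH2 genes (5.51%). Pseudogenes made up 30.0% of the p53 genes and 5.15% of the EZH2 genes, beside 21.2% of all genes. Protein-coding genes made up 42.0% of the p53 genes and 66.5% of the EZH2 genes, beside 43.7% of all genes. Ribosomal RNA genes stood out by EZH2, with p53 at 0 and EZH2 at 43 of 63. A single chromosome 8 megabase holds 48 of them, so these calls largely describe 1 place. At a p53 share of 0.72% over all genes, 0 of 63 is near the background. Transfer RNA genes had 0 for p53 and 38 of 408 for EZH2 (9.31%, beside 4.98% of all genes). Ribosomal and transfer RNA genes are multicopy, so their peaks carry the same reservation on near-identical copies.

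Among genes with a formal symbol, those after Fasl and Neat1 by p53 fold at a gene end had folds of 4.08 or less. Gm10222 and Gm10925 (8.32) and Gm23089 (4.08), which have provisional symbols, are left out of this order. The genes were Obox4-ps19 and Zfp981 (4.08 each, 11 fragments), Slc30a4 (4.01, 16 fragments), Obox4-ps28 (4.0), Pramel34 (4.0), Zfp978 (3.89), Cep152 and Obox4-ps17 (3.74 each). Of these, Cep152, a centriole duplication gene, and Fasl had no EZH2 peak. The genes with p53 and no EZH2 peak within a further 5 kb also included Chpt1, Cytl1, the microRNA gene Mir21a and the overlapping Vmp1, which share a peak, Tas2r108, Tcl1b3 and Vmn1r20, each at 3.40 on 9 fragments with a q of 1. Most formally named genes with the highest EZH2 folds encode developmental regulators, and they were Lbx1 (9.37, 48 fragments), Hoxc9 (8.55, 56 fragments), Rims2, a synaptic release gene (8.29), Foxi3 (8.2), Erfl (7.96), Foxd3, a neural crest forkhead gene (7.83), Dmrta2 (7.78) and Gata6, an endoderm GATA factor gene (7.52), and none had a p53 peak at a gene end. Neat1 (8.31) stood among them as the 1 with p53. With p53 at 0.72% of all genes, its absence from the others is near the background.

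Of 32 p53 target genes, 3 had a p53 peak at a gene end (9.38%, against 0.72% of all genes). An EZH2 peak was at 2 (6.25%, against 4.98%), and no gene had both (0.113% of all genes). The EZH2 count and the lack of genes with both were near these background shares. Fasl joined this list with its peaks already known, so its count is no independent support. The other p53 members were Rrm2b, a ribonucleotide reductase subunit gene (3.06, 8 fragments), and Plk2, a polo-like kinase gene (2.72, 7 fragments), both with a q of 1. The EZH2 members were Perp, a p53-induced membrane protein gene (3.19, 14 fragments), and Phlda3, a p53-induced inhibitor of AKT (2.32, 10 fragments), and both carried H3K27me3. Cdkn1a, the cell-cycle inhibitor p21, had its nearest p53 peak 1109 bp away (2.26, 6 fragments). A pair of overlapping peaks lay 6668 bp away by the EZH2 peak, with folds of 4.08 for p53 and 3.21 for EZH2. The p53 peak at 1109 bp and the EZH2 peak of the pair lay in H3K27me3. Both also overlapped every SIRT1 list of the series, that of p53-knockout macrophages included. Mdm2, the p53 ubiquitin ligase gene, had its nearest p53 peak 146219 bp away, and Trp53, the gene of p53 itself, 566969 bp away.

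Of 35 Polycomb-regulated developmental genes, a list chosen with these EZH2 results known, 0 had p53 (0.72% of all genes) and 32 had EZH2 (4.98% of all genes), with a median EZH2 fold of 4.89 over those 32. Of 39 Hox genes, 0 had p53 and 29 had EZH2, with a median EZH2 fold of 3.90, and over all genes called for EZH2 the median was 2.89. At a share of 0.72%, a p53 count of 0 in lists of this size is near the background, and over whole genes p53 was in 1 of the 35, Isl1. Among 22 genes of Polycomb subunits and H3K27 enzymes, p53 was at 0 and EZH2 was at 3, namely Bmi1 (7.31), Cbx8 (5.66) and Cbx2 (2.39), which encode subunits of Polycomb repressive complex 1, and over the whole gene p53 was in Ezh2 itself (2.38, 6 fragments). Shares of 0.72% for p53 and 4.98% for EZH2 over all genes leave 0 or 1 call in lists of 10 to 24 genes near the background, and so it was in the macrophage lists. p53 and EZH2 were each at 0 of 10 identity genes. Of 21 inflammasome genes p53 was at 0 and EZH2 at 1 (Txnip, 2.24). Of 24 NF-kB and LPS response genes each was at 1, with the chemokine Ccl20 for p53 (3.06, 8 fragments) and the LPS receptor Tlr4 for EZH2 (2.24, 9 fragments). Counted over whole genes, p53 was in 3.61% and EZH2 in 9.09% of all genes. On that count p53 was in 2 identity genes, Adgre1 and Mertk, and EZH2 in 1, Adgre1, p53 was in 1 inflammasome gene, Nlrp3, and EZH2 in 3, Aim2, Nlrp3 and Txnip, and Nos2 joined the NF-kB and LPS genes with EZH2. Of 16 long non-coding RNAs, p53 was at 1, Neat1, and EZH2 at 4, Neat1, Hotair (4.55), Miat (3.92) and Tug1 (2.41).

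Tandem families differed in their share of genes with a listed p53 peak. Vomeronasal receptor genes had p53 at 28 of 625 (4.48%, against 0.72% of all genes) and EZH2 at 21 (3.36%, against 4.98%), with p53 folds of 2.22 to 3.74 on 6 to 12 fragments, and 17 of the 28 lay in dense megabases. Zinc finger genes named Zfp had p53 at 11 of 416 (2.64%) and EZH2 at 23 (5.53%), and 9 of the 11 lay in dense megabases. A q of at most 0.05 was reached at 0 of the 28 vomeronasal and 1 of the 11 Zfp genes with p53. p53 occupancy of these families is therefore not shown. The reservation on near-identical copies applies here too, and its part was not tested. Olfactory receptor genes had p53 at 9 of 1428 (0.630%, beside 0.72% of all genes) and EZH2 at 10 (0.70%, beside 4.98%), and none of the 88 cytosolic ribosomal protein genes had either. The plot of gene lists shows no p53 bar at the developmental genes, where the EZH2 bars stand far above the EZH2 share over all genes.

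**Figure D5:**
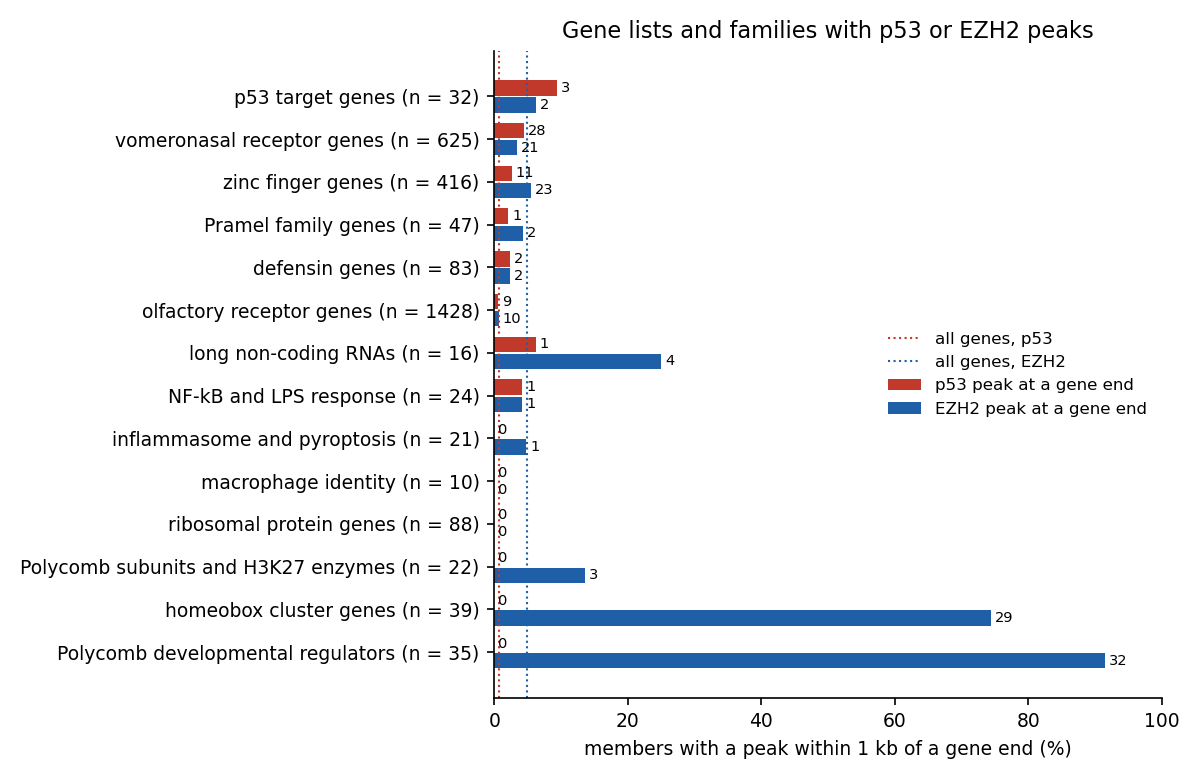
Share of list members (%) with a p53 or an EZH2 peak within 1 kb of a gene end, with the number of genes called at each bar and dotted lines at the shares over all genes (0.72% for p53 and 4.98% for EZH2). p53 is at none of the 35 developmental regulators and EZH2 at 32.

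Both lists were sparse on chromosome X, with 0.561 p53 peaks and 0.740 EZH2 peaks per Mb. On the autosomes p53 ran between 1.297 peaks per Mb (chromosome 2) and 2.88 (chromosome 4), and EZH2 between 3.06 (chromosome 16) and 4.72 (chromosome 19). With dense megabases left out, p53 had 1.77 peaks per Mb on chromosome 4, below 2.20 on chromosome 12, and 0.489 on chromosome X. The sex of the mice was not analysed here.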

How the data were processed

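The deposited lists held 5164 p53 peaks and 9843 EZH2 peaks, of which those on chromosomes 1 to 19 and X were used. Peaks were called with MACS2 on GRCm38 (mm10), and deepTools was used, per the submitters' processing notes; not given in the sources used here were the aligner, the versions and the input behind each list. Per peak the authors gave a score, a fold (a ratio of fragments to local background), −log10 p-value and −log10 q-value; these are the authors' own values and were ranked only within a list. Fragments at each summit were solved from fold and −log10 p as whole numbers (tolerance 0.0001).

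Peaks overlapped when they shared 1 bp, locations were taken at the summit, and a gene was called when a peak overlapped the 1 kb either side of an end of any of 49554 RefSeq genes (GRCm38.p6). The genes named are 10 fixed ones, the 10 with a formal symbol highest by fold in each of p53, EZH2, both and either alone, and list members. The peaks, gene lists and thresholds were chosen with earlier results of these data known. With 1 library per antibody, no test was run. Overlap, location and fragment steps were tested on simulated data. Python 3.11.15 was used with numpy 2.4.6, scipy 1.17.1, pandas 2.3.3 and matplotlib 3.10.9.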

Additional observations from a re-analysis of the deposited data

Results flagged for a closer look

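Peaks outside chromosomes 1 to 19 and X were not part of the comparison and held signal. The p53 list had 190 peaks on chromosome Y, 1 of them with q of at most 0.05, and the EZH2 list also had 190, 15 of them with q of at most 0.05. On unplaced or unlocalised contigs there were 95 p53 peaks, 12 with q of at most 0.05, and 71 EZH2 peaks, 8 with q of at most 0.05. Mitochondrial DNA had 1 p53 peak of 16202 bp with a fold of 7.21 and 219 fragments at its summit, and 1 EZH2 peak of 16186 bp with a fold of 4.74. The peak over Gm10222 and Gm10925 on chromosome 1 described above stands at 8.32 for p53 and 5.25 for EZH2. Reads of mitochondrial origin were not tested for at that place.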

How the results depend on the processing

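Of 103 alternatives to 17 results, 36 stayed within the counting interval or within 1.5 times and 67 moved. Part of the 36 was fixed in advance. Leaving out regions with a peak in all 9 lists removed nothing, and limiting the EZH2 list cannot move results of p53 alone. EZH2 was above p53 for gene ends in 6 of 6 alternatives of both lists, for H3K27me3 in 6 of 6 and for median width in 5 of 5, and below p53 beyond 10 kb in 6 of 6. Each of these counts includes the alternative that removed nothing. With q of at most 0.05, the overlap was 24.1% for p53 and 0.809% for EZH2, gene ends 15.5% (p53) and 46.3% (EZH2), beyond 10 kb 18.97% (p53) and 5.31% (EZH2), median width 537.5 bp (p53) and 1098 bp (EZH2), dense megabases 100% (p53) and 41.3% (EZH2), H3K27me3 0% (p53) and 86.5% (EZH2), H3K27ac 5.17% (p53) and 0.578% (EZH2), and genes 11 (p53) and 1161 (EZH2) with 5 in both. With −log10 q of at least 5, the overlap was 27.3% for p53 and 0.8% for EZH2, gene ends 36.4% (p53) and 57.3% (EZH2), beyond 10 kb 18.2% (p53) and 0.8% (EZH2), width 831 bp (p53) and 2386 bp (EZH2), dense megabases 100% (p53) and 100% (EZH2), H3K27me3 0% (p53) and 98.4% (EZH2), H3K27ac 18.2% (p53) and 0.8% (EZH2), and genes 5 (p53) and 399 (EZH2) with 3 in both. With so few peaks, any bin that holds a peak passes 5 times the mean, which gives the 100% by construction. With EZH2 limited to as many peaks as p53, the overlap was 3.05% for p53 and 3.05% for EZH2, EZH2 gene ends 29.4%, beyond 10 kb 16.9%, width 518 bp, dense megabases 16.4%, H3K27me3 58.2%, H3K27ac 1.5%, and 35 genes had both. Without dense megabases, the overlap was 1.77% for p53 and 0.860% for EZH2, p53 gene ends 4.74%, beyond 10 kb 42.3%, width 373 bp for p53 and 427 bp for EZH2, and 16 genes had both. With 50% overlap required, sharing was 3.69% for p53 and 1.89% for EZH2, H3K27me3 1.95% (p53) and 40.9% (EZH2), and EZH2 in H3K27ac 1.85%. At 10 times the mean, dense megabases held 10.7% of p53 and 3.10% of EZH2 peaks. With protein-coding genes alone, gene ends took 2.69% for p53 and 16.2% for EZH2, beyond 10 kb 56.5% (p53) and 36.7% (EZH2), and genes were 150 (p53) and 1642 (EZH2) with 25 in both. With 5 kb either side, genes were 1148 for p53 and 4380 for EZH2 with 208 in both. The causes of these moves were not tested. No region had a peak in all 9 lists (at most 8), so that alternative left nothing out. No paired analysis was possible because no result comes from a test. p53 summits rested on a median of 7 fragments and EZH2 summits on 10, and a gene without a peak is not shown to lack p53 or EZH2.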
